A study of Mus musculus with 4 samples.

Results

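Hsph1, Unc45a, Klhdc2 and Dcun1d1 are the 4 genes described here, of 1133 genes that carry a single name in these data. All 4 had higher intensities in the distal than in the proximal nail matrix of the mouse, by 2.85-fold to 4.37-fold on 2 arrays per region. They were taken by symbol from the authors' list of probe sets that differed between the regions, and each has 1 probe set there. A probe set is a group of short oligonucleotides on the array that reads a transcript. Because this same contrast chose them, their difference is described below and not tested.

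Nail plate is made by the nail matrix, an epithelium that lies beneath the nail fold. The study compared intact distal nail matrix (2 arrays) with intact proximal nail matrix (2 arrays), both microdissected from mice aged 8 weeks, with total RNA hybridised to Affymetrix Mouse430_2 arrays. No allele or agent is named in the labels, nor is a strain. The labels number the arrays 1 and 2 within each region and do not say whether they came from separate animals or pools, so any spread below may be technical.

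Chaperones hold, fold or refold other proteins. Hsph1 encodes a member of the HSP110 family, which exchanges nucleotide on HSP70 and keeps unfolded proteins in solution. Unc45a encodes a chaperone of myosin that works with HSP90, the form made in most cells, whereas its paralogue Unc45b belongs to striated muscle. The other pair of genes belongs to the cullin RING ubiquitin ligases, which mark proteins for the proteasome. Klhdc2 encodes a Kelch repeat substrate receptor that brings proteins with certain C-terminal ends to the CUL2 ligase, and Dcun1d1 encodes a protein that helps to attach NEDD8, the ubiquitin-like protein that switches cullins on.

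The 4 genes are set side by side at their promoters because HSP110 genes are textbook targets of heat shock factors, which bind repeats of a short unit called the heat shock element. The stretches run from 250 bases before to 50 after the first start listed in RefSeq for each gene (build GRCm38.p6), 5′ to 3′, and all 4 symbols matched. They lie at chr5:149636287-149636586 for Hsph1, chr7:80340170-80340469 for Unc45a and chr3:35932917-35933216 for Dcun1d1, all on the minus strand, and at chr12:69296431-69296730 on the plus strand for Klhdc2. RefSeq puts the 5′ bound of the whole gene at 149636498 for Hsph1, 80341000 for Unc45a and 35937472 for Dcun1d1. The starts used for these genes thus lie inside the bounds. The windows of Unc45a and Dcun1d1 do not reach the 5′ bound, while those of Hsph1 and Klhdc2 include it. Capitals mark the 2-unit heat shock elements TTCNNGAA and GAANNTTC, where N is any base, and where they overlap they make the 3-unit form.
Hsph1: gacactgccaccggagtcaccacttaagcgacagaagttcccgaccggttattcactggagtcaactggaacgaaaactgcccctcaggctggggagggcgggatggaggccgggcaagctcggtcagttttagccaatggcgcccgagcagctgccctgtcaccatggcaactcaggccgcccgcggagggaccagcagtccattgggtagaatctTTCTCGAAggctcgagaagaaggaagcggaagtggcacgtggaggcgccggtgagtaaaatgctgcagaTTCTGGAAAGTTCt
Unc45a: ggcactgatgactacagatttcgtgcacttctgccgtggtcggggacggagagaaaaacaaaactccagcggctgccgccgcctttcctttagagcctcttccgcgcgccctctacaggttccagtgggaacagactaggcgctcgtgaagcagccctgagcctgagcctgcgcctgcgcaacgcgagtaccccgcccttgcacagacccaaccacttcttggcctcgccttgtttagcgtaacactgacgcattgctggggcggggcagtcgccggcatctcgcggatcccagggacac
Klhdc2: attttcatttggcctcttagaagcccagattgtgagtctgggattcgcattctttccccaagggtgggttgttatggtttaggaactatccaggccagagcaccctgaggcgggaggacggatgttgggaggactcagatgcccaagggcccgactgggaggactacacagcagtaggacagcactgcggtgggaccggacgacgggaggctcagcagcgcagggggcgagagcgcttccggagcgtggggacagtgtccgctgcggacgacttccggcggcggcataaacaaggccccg
Dcun1d1: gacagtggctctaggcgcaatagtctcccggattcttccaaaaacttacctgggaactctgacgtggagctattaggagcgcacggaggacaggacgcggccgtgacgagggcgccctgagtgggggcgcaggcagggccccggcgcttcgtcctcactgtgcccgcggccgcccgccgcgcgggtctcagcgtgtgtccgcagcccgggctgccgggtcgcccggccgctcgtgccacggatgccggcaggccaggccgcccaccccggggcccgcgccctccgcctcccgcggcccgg

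The Hsph1 promoter held 3 matches to a 2-unit element, at 33 bases before the start and, overlapping each other, at 37 and 42 bases after it. The overlapping pair forms a 3-unit element (TTCNNGAA with a further unit in the same spacing, on either strand), which 0.603% of the 32851 RefSeq mouse promoter windows of the same length hold. A 2-unit element of either form is in 15.1% of them, counting those inside 3-unit elements. The other start listed for Hsph1 lies 21 bases away and has the same matches. No 2-unit element was found in the windows of Unc45a, Klhdc2 or any of the 3 starts of Dcun1d1. The GC box letters GGGCGG, searched on both strands, occurred in the windows of Hsph1, Unc45a and Dcun1d1, as in 35.7% of all windows. CCAAT, likewise on both strands, occurred in that of Hsph1 alone (37.4% of all windows), and TATAAA in none of the 4 genes' windows (13.6% of all windows). A match to such letters is a description of the sequence and no binding was measured here.

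**Figure D1:**
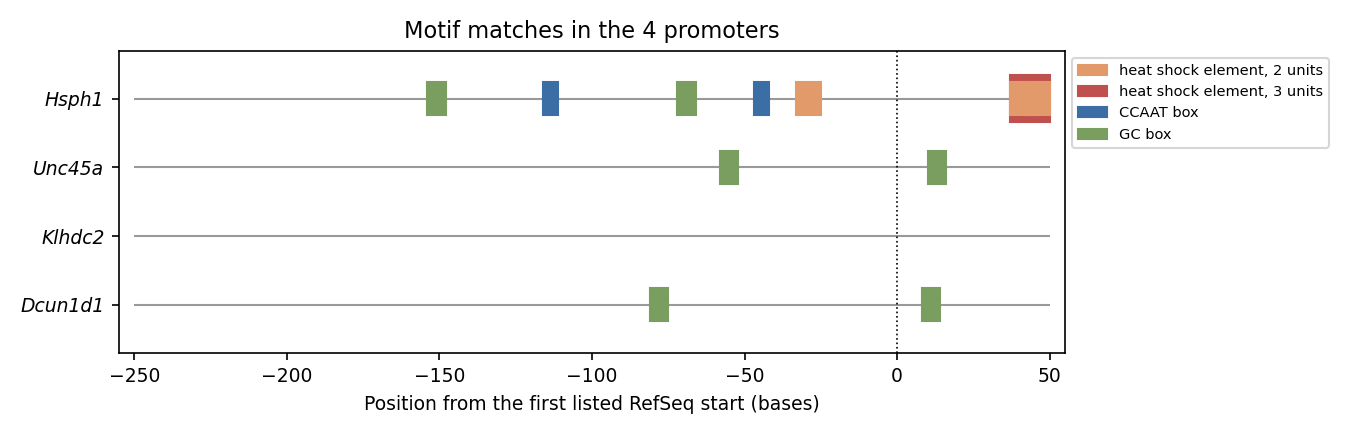
Positions of motif matches (coloured blocks) in bases from the first listed start of each gene, from 250 before to 50 after it, with the start at the dotted line. Within these windows only Hsph1 has heat shock elements, and the Klhdc2 line is bare of the motifs searched. The windows of Unc45a and Dcun1d1 do not reach the 5′ bound of the gene.

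Array-wide values set the frame. Each array gave linear intensities for 45037 probe sets besides 64 controls, and the median ranged from 41.6 to 55.7. The distal arrays correlated with each other at a Pearson's r of 0.669 over all probe sets and the proximal arrays at 0.721, beside 0.662 to 0.721 for arrays of different regions, so the distal pair was about as unlike as arrays of different regions. Control probe sets at the 3′ end over those at the 5′ end, a measure of RNA length, ran from 6.73 to 9.40 for Gapdh and from 0.524 to 0.636 for beta-actin, with the regions overlapping for both. All 4 genes lay above the highest of 27 Bacillus subtilis control probe sets, the background measure used here, on all 4 arrays. Intensities of different probe sets cannot be compared with each other, so each gene is set only against itself. The sums over marker genes given below are an exception, and the brightest probe set dominates them.

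Hsph1, by probe set 1423566_a_at, had intensities of 12071.6 and 6914.3 on distal replicates 1 and 2, against 3169.8 and 3238.1 on proximal replicates 1 and 2. The regions did not overlap, and the lower distal array was 2.14-fold above the higher proximal one. The distal arrays differed from each other by 1.75-fold and the proximal arrays by 1.02-fold, so nearly all of its spread came from the distal side. The mean log2 difference, distal minus proximal, was 1.51 ± 0.25 (limma SE, n = 2 arrays per region), or 2.85-fold. limma's SE draws on the spread of other probe sets of like intensity, so here and below it is not the gene's own error. The pooled SD of a gene's own replicates, in log2 units, was 0.40 for Hsph1, 0.56 for Unc45a, 0.44 for Klhdc2 and 0.29 for Dcun1d1.

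Unc45a, by 1455912_x_at, had intensities of 1629.6 and 2768.1 on the distal arrays, against 645.5 and 366.2 on the proximal arrays. Here distal replicate 2 was the brightest array and proximal replicate 2 the dimmest, and both regions spread alike, by 1.70-fold within distal and 1.76-fold within proximal. The log2 difference was 2.13 ± 0.38 (limma SE, n = 2 per region), or 4.37-fold, the largest of the 4, with a gap of 2.52-fold between the nearest arrays of the regions.

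Klhdc2, by 1435086_s_at, had intensities of 3161.2 and 5649.5 on the distal arrays, against 1330.1 and 1099.5 on the proximal arrays. As for Unc45a, distal replicate 2 was the higher distal array and proximal replicate 2 the lower proximal one. The distal pair differed by 1.79-fold and the proximal pair by 1.21-fold. The log2 difference was 1.81 ± 0.30 (limma SE, n = 2 per region), or 3.49-fold, and the gap between the regions was 2.38-fold.

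Dcun1d1, by 1452080_a_at, had intensities of 1616.1 and 1320.8 on the distal arrays, against 428.9 and 300.7 on the proximal arrays. Its distal arrays were the closest pair among the 4 genes, at 1.22-fold, while the proximal arrays differed by 1.43-fold. It also had the widest gap between the regions, 3.08-fold. The log2 difference was 2.02 ± 0.39 (limma SE, n = 2 per region), or 4.07-fold.

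In the intensities as deposited, the regions did not overlap for any of the 4 genes. They were chosen with this contrast in view, so nothing is read from that. Across all probe sets, 16.4% had non-overlapping intensities with the distal side higher, and the share with the proximal side higher is not given here. In bulk tissue a lower share of cells with a transcript and less of it per cell cannot be told apart. In Affymetrix naming the _a_at sets of Hsph1 and Dcun1d1 read several transcripts of 1 gene, the _s_at set of Klhdc2 may read transcripts of more than 1 gene, and the _x_at set of Unc45a holds some probes that match other sequences. Values for Klhdc2 and Unc45a may therefore include signal from other transcripts.

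**Figure D2:**
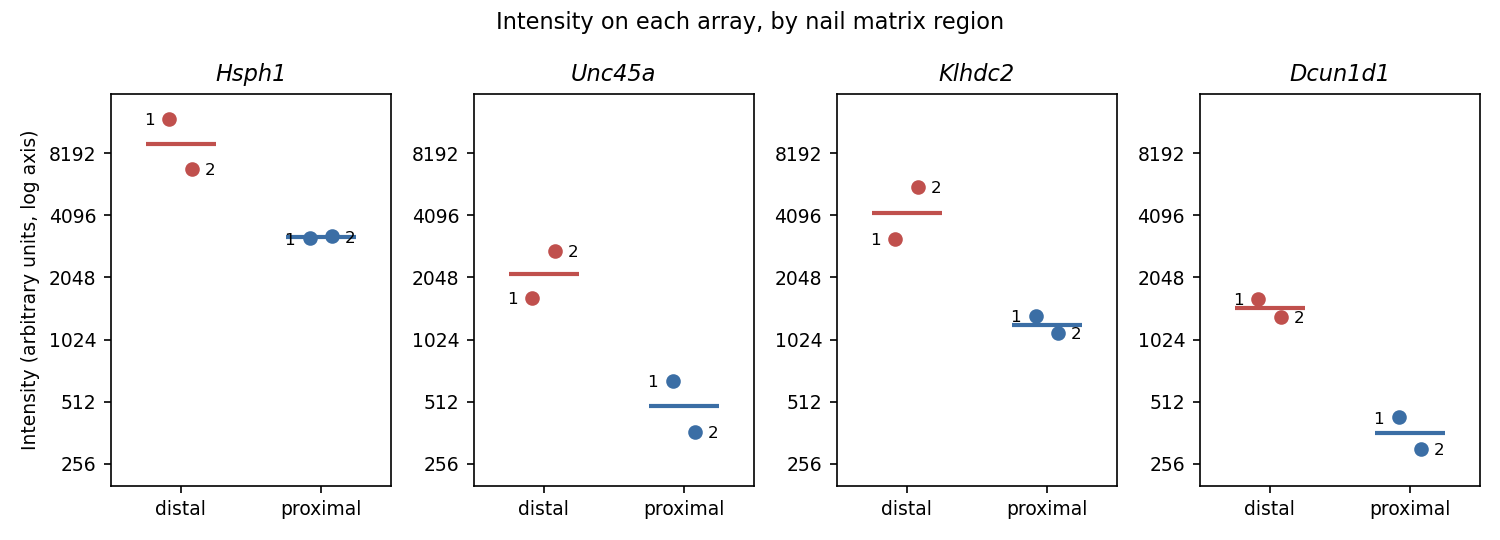
Intensity on a log axis (arbitrary units) for each gene, with 1 point per array, numbered by replicate, and bars at the geometric mean of the 2 arrays of a region. For each gene both distal points sit above both proximal points, and the distal order of replicates is 1 over 2 for Hsph1 and Dcun1d1 and 2 over 1 for Unc45a and Klhdc2.

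The 4 genes shared the regional step but not the pattern within regions. Hsph1 and Dcun1d1 were brighter on distal replicate 1, and Unc45a and Klhdc2 on distal replicate 2. The root mean square distance between log2 profiles, each centred on its mean over the 4 arrays, was smallest for Unc45a and Klhdc2, at 0.25. It was largest for Hsph1 and Unc45a, at 0.70. The myosin chaperone gene thus ran closer to the CUL2 receptor gene than to the other chaperone gene on these arrays, a description over 4 points that share their arrays.

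In the authors' deposited table, which holds group values on a log2 scale of the authors' own, the 4 genes had smaller folds than in the intensity table. The authors' deposited table gives distal over proximal as 3.14-fold for Klhdc2, 2.87-fold for Unc45a, 2.65-fold for Dcun1d1 and 2.13-fold for Hsph1. Among the 366 genes higher in distal matrix in the authors' deposited table, they ranked 64, 82, 111 and 275 by fold, in that order. The largest difference was thus that of Klhdc2 there and that of Unc45a by intensity. The list was cut at a fold of 1.99, and Hsph1 at 2.13 lay nearest to that edge in the authors' deposited table. Probe sets outside the list carry no name here, so genes just outside the edge cannot be given.

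The size of the difference varied with scaling, and its direction did not. Each array was also scaled to 18 hybridization controls, RNAs added in fixed amounts. The log2 differences were then 1.0 ± 0.68 for Hsph1, 1.62 ± 0.66 for Unc45a, 1.29 ± 0.65 for Klhdc2 and 1.51 ± 0.68 for Dcun1d1 (limma SE, n = 2 per region). These SEs were wider than in the deposited scaling. For Hsph1 the regions then overlapped, as distal replicate 2 no longer exceeded proximal replicate 2. The controls' geometric mean intensity was 56627 and 73043 on the distal arrays, against 59860.1 and 34058 on the proximal arrays. That scaling put the median of all probe sets at -0.57, against -0.06 in the deposited scaling. Relative to the median of all probe sets, the differences were 1.57, 2.18, 1.86 and 2.08 for Hsph1, Unc45a, Klhdc2 and Dcun1d1 in both scalings. They are the same by construction, since control scaling moves every probe set of an array by the same amount.

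**Figure D3:**
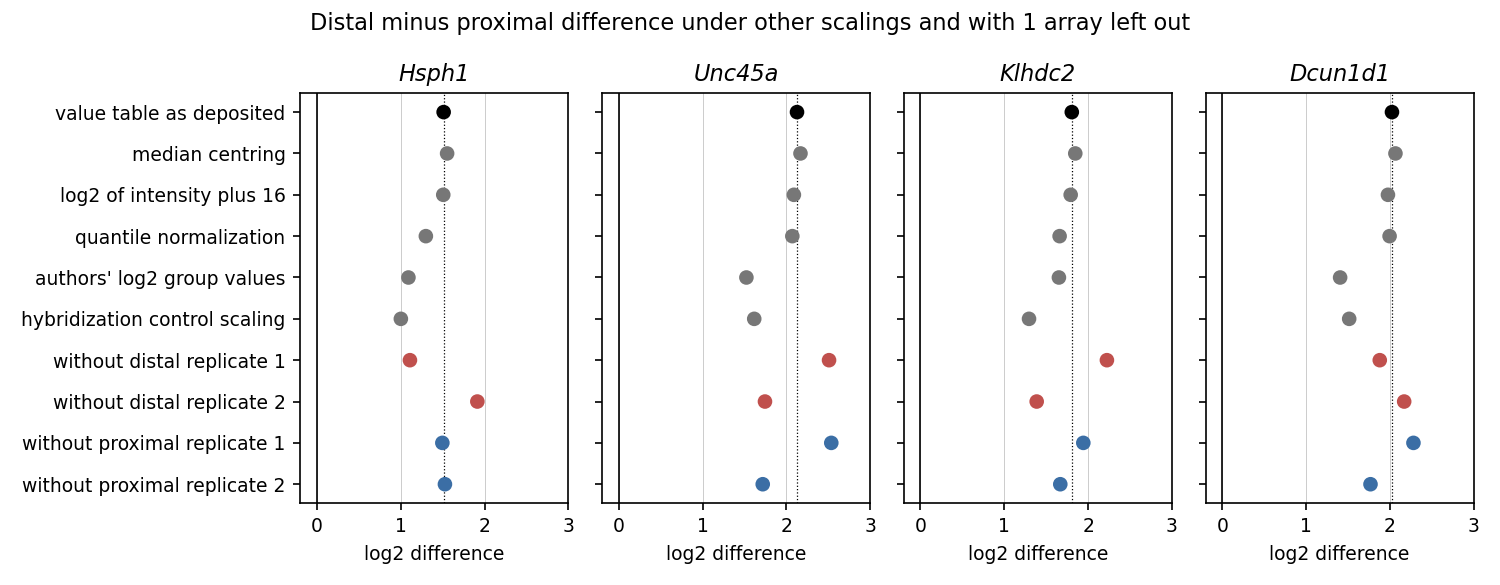
Log2 difference, distal minus proximal, of each gene in the deposited scaling (black, dotted line), under other scalings and in the authors' own group values (grey), and with 1 distal (red) or 1 proximal (blue) array left out. All points lie at 1.0 or above, and leaving out distal replicate 1 or 2 moves Hsph1 and Klhdc2 in opposite directions.

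The other genes of these pathways gave a mixed picture. Lists of chaperones, myosins, cullin ligase subunits and neddylation genes had 21 further genes with a name, with the distal intensities higher for 8 of them and the proximal for 13. None of the 21 passed limma's test over all probe sets (0 of 21 at a Benjamini-Hochberg adjusted p under 0.05), and 12 had an unadjusted p under 0.05. Over all probe sets 0.0666% passed (30 of 45037), and 5.09% had an unadjusted p under 0.05. Their median log2 difference was -1.01, or -0.79 with the 3 genes not above background in a region set at their bounds, beside -0.94 over the 1133 named genes and -0.06 over all probe sets. All of these genes are named only because the authors had chosen them for fold on these arrays, so neither their directions nor the 12 are independent evidence. An unadjusted p under 0.05 was also found for 534 of the 1133 named genes. The call count of 0 rests on 2 arrays per region: limma passed 6 of the 21 without distal replicate 1 (Dnajc5, Tomm70a, Klhl24, Fem1c and Ube2f toward proximal and Fbxl20 toward distal) and 3 without distal replicate 2 (Dnajc5 toward proximal, Btbd7 and Socs4 toward distal). Without those arrays 2.0% and 1.41% of all probe sets passed, and the lone distal array is assumed to vary like the proximal ones.

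All 6 other named chaperone genes had higher intensities in proximal matrix, the opposite side to Hsph1 and Unc45a, under each scaling tried, and none of the 6 passed. Of all 1133 named genes, 31.7% were higher in distal matrix. Hspa13, an HSP70 of the endoplasmic reticulum, had intensities of 68.4 and 101.8 on the distal arrays, against 323.0 and 227.5 on the proximal arrays. Dnajc5, whose J-domain protein sits on secretory vesicles and recruits HSP70, had 107.4 and 54.8 on the distal arrays, against 421.2 and 441.7 on the proximal arrays. Distal replicate 2 of Dnajc5 was not above background. For both genes the regions did not overlap, in the opposite order to Hsph1. Nothing is read from non-overlap here or for the genes below, all of them named only through the authors' choice by fold.

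Cdc37, which delivers kinases to HSP90, was not above background on the distal arrays, at 3.0 and 3.2, against 124.0 and 81.1 on the proximal arrays. It was at least 1.46-fold higher in proximal matrix, measured against the distal arrays' background control. Tomm70a, a mitochondrial import receptor that docks HSP70 and HSP90, was at -2.57 on the log2 scale and Tsc1, which also binds HSP90, at -1.39. Tomm70a had 167.0 and 21.7 on the distal arrays, against 349.7 and 367.5 on the proximal arrays. Distal replicate 2 of Tomm70a was not above background, and its difference was -4.05 without distal replicate 1 and -1.10 without distal replicate 2. Pfdn4, a prefoldin subunit that hands unfolded chains to the chaperonin, was at -1.01. The differences of Hspa13 and Dnajc5 were -1.70 and -2.49, and their other listed probe sets, at -1.72 and -1.77, had the same sign. Each of these other sets had 1 distal array above background, and the regions overlapped for that of Dnajc5. They too were listed only by the authors' choice by fold, so they are no independent evidence. No heat shock factor gene of the list was named in these data, and neither was Unc45b.

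Myosin heavy chains, the clients of UNC45 proteins, were represented by Myo19 alone, a myosin of mitochondria. It had intensities of 93.8 and 43.1 on the distal arrays, against 121.6 and 270.7 on the proximal arrays, a log2 difference of -1.51 ± 0.86 (limma SE, n = 2 per region; adjusted p = 0.905). Leaving out 1 array moved it between -2.09 and -0.94. Distal replicate 2 of Myo19 was not above background. The step from region to region was thus in the opposite order to that of Unc45a and did not pass.

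Cullin pathway genes were split, the distal side being the higher for 8 of the 14 other named genes and for 7 when arrays were scaled to hybridization controls or distal replicate 2 was left out. Rnf7, the RING subunit of CUL5 ligases, was the only core subunit named and had intensities of 753.4 and 480.6 on the distal arrays, against 207.5 and 322.4 on the proximal arrays. Its log2 difference of 1.22 ± 0.49 (limma SE, n = 2 per region; adjusted p = 0.905) had the sign of Klhdc2 and Dcun1d1 and did not pass. No cullin, and neither elongin subunit, was among the named genes.

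Genes of the NEDD8 path lay on the opposite side to Dcun1d1. Uba3, the catalytic subunit of the NEDD8 activating enzyme, had intensities of 557.2 and 538.4 on the distal arrays, against 911.0 and 984.1 on the proximal arrays. Ube2f, the NEDD8 conjugating enzyme that acts on CUL5, had 403.2 and 71.0 on the distal arrays, against 462.2 and 310.0 on the proximal arrays. The regions were apart for Uba3 and overlapped for Ube2f, whose distal replicate 1 exceeded proximal replicate 2. Their log2 differences were -0.79 and -1.16, and neither passed (limma, adjusted p = 0.905 for both). Without distal replicate 2 the difference of Ube2f turned to 0.09, while that of Uba3 was -0.76. Ube2f was not above background on that array.

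The list that held Klhdc2 joined Kelch genes and BTB genes, which need not be of its kind. Among the others on it, the log2 difference was 1.41 for Klhl8, 1.27 for Btbd7 and -3.66 for Klhl24. Proximal replicate 1 of Klhl8 was not above background. Leaving out distal replicate 1 or 2 gave 0.44 or 2.38 for Klhl8, 0.57 or 1.97 for Btbd7 and -5.12 or -2.19 for Klhl24. Klhl24 encodes a CUL3 receptor known in human skin for the turnover of keratin 14. It had intensities of 60.3 and 7.9 on the distal arrays, against 282.5 and 267.7 on the proximal arrays. Of its distal arrays, 1 was above the background control, and it did not pass (limma, adjusted p = 0.478). Btbd11 was not above background on the distal arrays and was at least 2.64-fold higher in proximal matrix.

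Fem1c, like Klhdc2 a CUL2 receptor for C-terminal ends of proteins, had intensities of 249.0 and 110.1 on the distal arrays, against 462.9 and 323.6 on the proximal arrays. Its regions did not overlap, in the opposite order to Klhdc2, with a log2 difference of -1.22 (limma, adjusted p = 0.905). The difference shrank to -0.64 without distal replicate 2. Of the SOCS box genes, Socs4 had a log2 difference of 1.57 and Wsb2 of 1.12, and neither passed. Socs4 had intensities of 701.5 and 272.0 on the distal arrays, against 71.6 and 303.6 on the proximal arrays. Proximal replicate 1 of Socs4 was not above background. Its regions overlapped, and with 1 array left out its difference lay between 0.52 and 2.61. Spsb1 did not exceed background on either proximal array. Set against the proximal background control, its distal mean was 2.11-fold higher by this probe set. That is no firm bound, since it rests on distal replicate 2, at 376.3. Distal replicate 1, at 51.9, was not above background either and lay under proximal replicate 1, at 68.2. Without distal replicate 2 the log2 difference was -0.08. By its other probe set Spsb1 was at least 8.13-fold higher in distal matrix, with distal arrays far apart at 122.2 and 2378.1. Spsb1 did not pass.

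F-box and CUL4 receptor genes gave probe sets that went against each other. Fbxl20, an F-box gene, had a log2 difference of 2.28 by its brighter probe set (limma, adjusted p = 0.186) and 1.59 to 2.97 with 1 array left out, whereas its other listed probe set pointed to proximal matrix, by at least 6.06-fold (limma, adjusted p = 0.0943). Crbn, the cereblon receptor of CUL4, was at -0.73 and its other probe set at 1.55, and for Btbd7 1 of 3 probe sets was higher in proximal matrix, at -1.65. Fbxw2 was at 0.24, and at -0.15 without distal replicate 2 and -0.27 under hybridization control scaling. None of these passed, and Hsph1, Unc45a, Klhdc2 and Dcun1d1 each have 1 listed probe set, so no such comparison can be made for them.

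**Figure D4:**
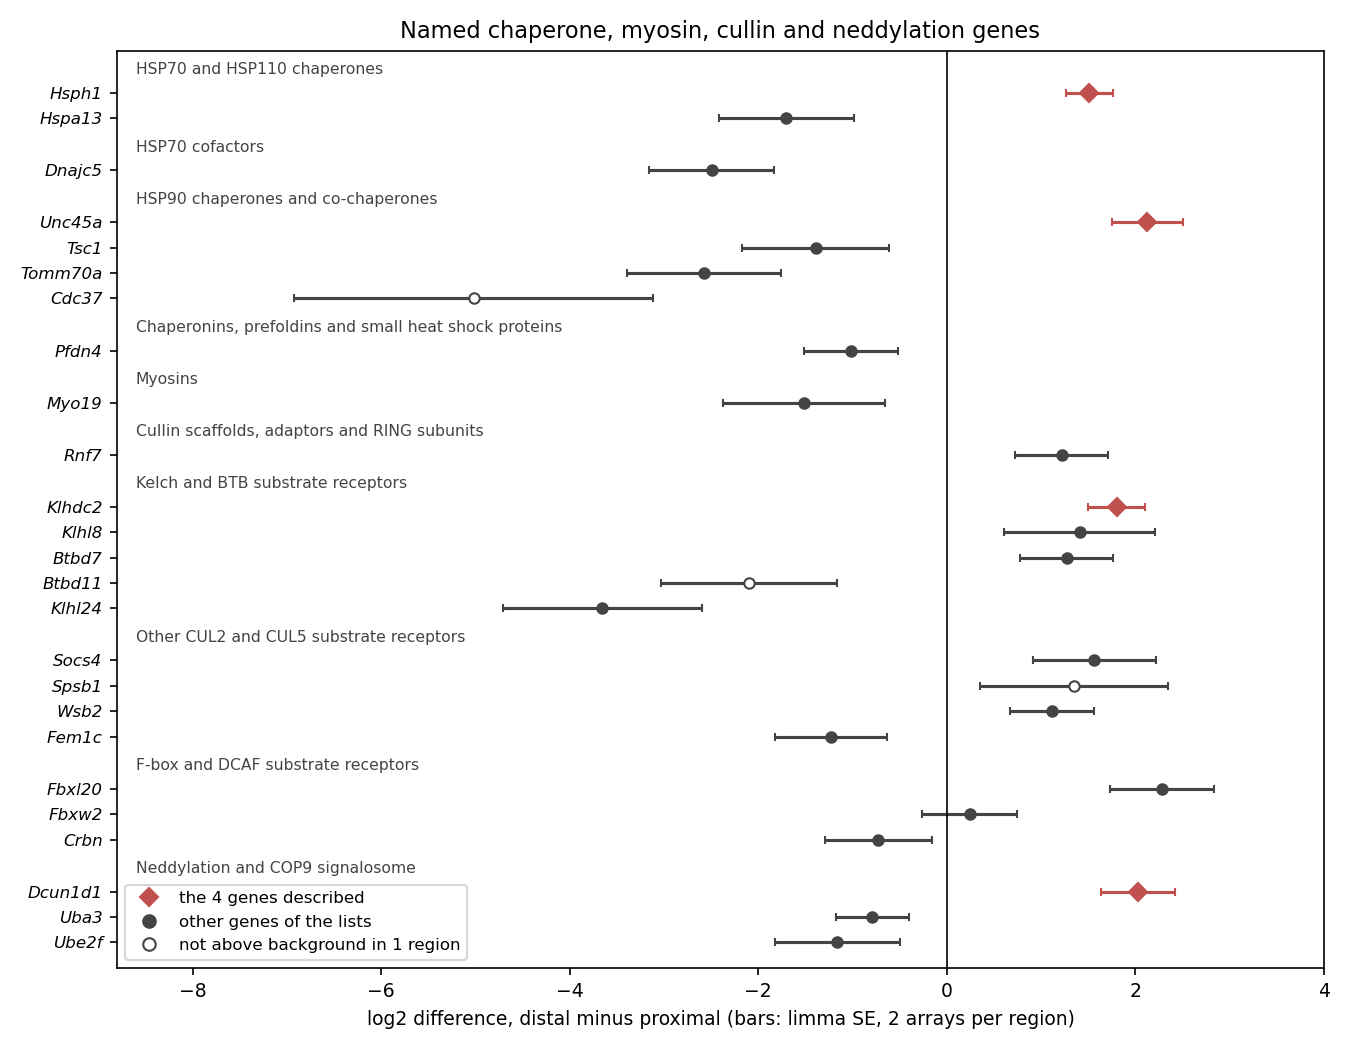
Log2 difference, distal minus proximal, with limma's SE, for the 4 genes described (red diamonds) and the 21 other named genes of the lists (dark circles), grouped by list. The red diamonds lie between 1.51 and 2.13, the 6 other chaperone genes lie left of 0, and the cullin receptor genes fall on both sides. Open circles are genes not above background in 1 region, whose plotted size is no measure.

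Genes with the most similar pattern were taken from the named probe sets within 1.5 log2 units of each gene's mean level, 10 for Hsph1, 215 for Unc45a, 45 for Klhdc2 and 378 for Dcun1d1. For Hsph1 they were Krt1, a keratin of the suprabasal epidermis (root mean square distance 0.30), Dvl1 (0.32) and Klhdc2 (0.61). With 10 candidates, the third of these was no close match, and Dcun1d1, outside the level window, was nearer to Hsph1 (0.37). For Unc45a they were Klhdc2 (0.25), the keratin-associated protein gene Krtap16-7, now Krtap21-1 (0.29), and Fbxl20 (0.29).

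For Klhdc2 they were Unc45a (0.25), the uncharacterised B230354K17Rik (0.36) and Tfpt (0.36). For Dcun1d1 they were Slc35a2, a sugar nucleotide transporter gene (0.25), Tfpt (0.30) and Thumpd3 (0.30). Krt1 had intensities of 5942.2 and 5742.2 on the distal arrays, against 2495.0 and 2458.7 on the proximal arrays, so its replicates were closer than those of Hsph1. Slc35a2 had 787.0 and 683.9 on the distal arrays, against 144.6 and 116.8 on the proximal arrays. The look-alikes are ranked over 4 arrays only.

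**Figure D5:**
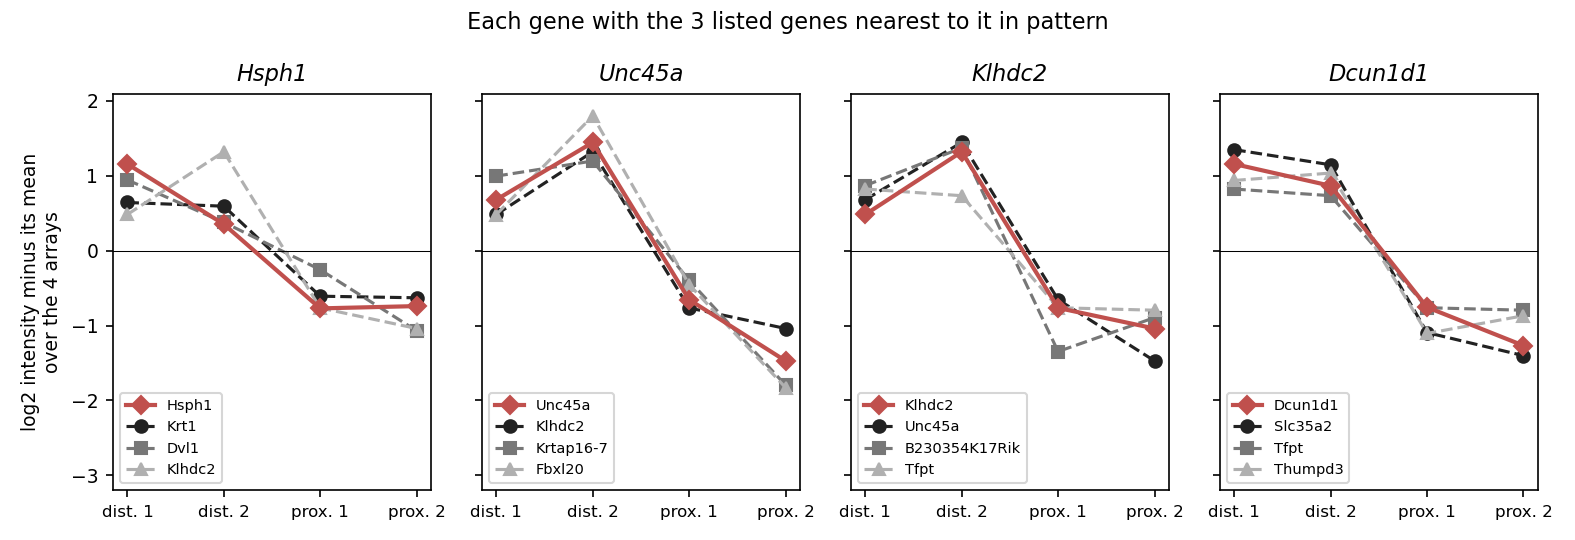
Log2 intensity minus its mean over the 4 arrays, for each gene (red diamonds) and the 3 named genes nearest to it (grey and black). The lines join arrays of separate samples to show the pattern, and Unc45a and Klhdc2 both peak on distal replicate 2 while Hsph1 and Dcun1d1 peak on distal replicate 1.

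Of the cell type markers, 7 were named, again only through the authors' choice by fold, and Krt42, Krt1 and Krt15 passed limma's test while Krt2, Lor, Itgb4 and Dcn did not. Of all 1133 named genes 15 passed toward distal and 4 toward proximal, and 0.0666% of all probe sets passed. Given that choice, the markers that passed are no independent evidence. No hard keratin of the nail and hair list was named. Its 1 named gene of 9 was Krt42, a type I epithelial keratin of the nail, at 8877.3 and 12309.8 on the distal arrays, against 731.1 and 1414.8 on the proximal arrays. Summed over the 3 named of 6 suprabasal keratinocyte markers (Krt1, Krt2 and Lor), the intensity was 6231 and 6489 on the distal arrays, against 4118 and 4869.9 on the proximal arrays. That sum is mostly Krt1, while Krt2 and Lor were lower on both distal arrays than on both proximal arrays. Krt2 had 229.9 and 742.3 on the distal arrays, against 1291.8 and 2172.0 on the proximal arrays. Over the 2 named of 7 basal keratinocyte markers (Krt15 and Itgb4), it was 624 and 1089 on the distal arrays, against 2522 and 2534 on the proximal arrays, with the regions overlapping for Itgb4. Dcn, the 1 named of 6 fibroblast markers, had 242.6 and 309.7 on the distal arrays, against 984.1 and 1049.1 on the proximal arrays. None of the 31 markers of endothelial, immune, pigment, Schwann, striated muscle, bone or blood cells was named. No named marker was at 0 on an array. However, Itgb4, at 12.1 on distal replicate 1, and Lor, at 4.2 on distal replicate 2, were not above background there. The part of cell makeup in the differences of the 4 genes was not tested.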

How the data were processed

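Trizol extraction and biotin labelling from the 3′ end were used, per the labels' protocols. Linear intensities of the probe sets were deposited as 1 table, and the sources used here do not name the authors' scaling step. The trimmed mean of the intensities, which leaves out the brightest and dimmest probe sets, was 150.001 on every array. The deposited arrays were thus scaled to a common trimmed mean. A second file, per the file headers, is a fold change list from a guided workflow, with a fold cut-off of 1.99 and no effective limit on p. Its unsigned fold, a ratio of the higher over the lower group, and its log2 group values are the authors' own. Its 1435 probe sets for genes include 1234 with 1 symbol (1133 genes). Of the 1234, 1156 matched a RefSeq gene identifier.

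A floor of 1 was set under the intensities before log2 was taken. The 45037 probe sets that are not controls were fitted with limma 3.58.1 in R 4.3.3 (lmFit, eBayes with a variance trend), two-sided, and p-values were adjusted by Benjamini-Hochberg over all of them and called under 0.05. Standard errors are limma's, moderated by the spread of probe sets of like intensity. A gene stands for its brightest listed probe set. A probe set no brighter than the highest of 27 Bacillus subtilis controls on both arrays of a region counted as not above background in that region, where only a bound on the fold is given. No columns of either file went without a sample or comparison.

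Members, lists and tests were chosen with earlier results of these data known. The named genes are the 4 members, the named genes of 11 lists, the named cell type markers and, per member, the 3 named genes nearest in pattern. Alternatives were other scalings, an added 16 before the log, no variance trend, brighter probe sets only, the replicate number as a block, the authors' log2 values and each array left out.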

Additional observations from a re-analysis of the deposited data

How the results depend on the processing

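The differences of the 4 genes kept their sign under all 10 alternatives tried for each, but for many of these the sign was fixed in advance. The replicate block leaves the difference unchanged, and leaving out 1 array cannot reverse regions that do not overlap. The authors' values are those from which the list was made. The differences moved by more than the pooled SD of replicates under scaling to the hybridization controls for Hsph1 (1.0), Klhdc2 (1.29) and Dcun1d1 (1.51), and in the authors' deposited table for Hsph1 (1.09), Unc45a (1.52) and Dcun1d1 (1.41). With 1 array left out they ranged from 1.11 to 1.91 for Hsph1, 1.72 to 2.54 for Unc45a, 1.39 to 2.22 for Klhdc2 and 1.77 to 2.28 for Dcun1d1. Each gene has 1 listed probe set, so the alternative of averaging probe sets gave no other value. limma called 30 probe sets (24 distal, 6 proximal), and 9 (6 and 3) under quantile normalization, 8 (6 and 2) under median centring, 12 (3 and 9) under control scaling, 17 (15 and 2) with 16 added, 2 (2 and 0) among brighter probe sets and 0 without a variance trend, where 3010 had an unadjusted p under 0.05. With 1 array left out the count ran from 4 (3 and 1, without proximal replicate 1) to 899 (306 and 593, without distal replicate 1), with 635 without distal replicate 2 and 7 without proximal replicate 2. Of the 21 other pathway genes, 0 to 6 passed with 1 array left out. With the replicate number as a block, 90 probe sets (53 distal, 37 proximal) and 1 pathway gene, Fbxl20, passed. Same-numbered arrays did not deviate together (r = -0.0072 across probe sets). The labels do not say whether they share animals or a batch, and an r over mostly dim probe sets cannot decide that. The causes were not tested. The 2 arrays per region limit every value, and signal near the background controls gives bounds only.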
